A study of Homo sapiens with 6 samples.

Results

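The S100 calcium-binding proteins were followed as 10 genes, S100A2, S100A3, S100A4, S100A6, S100A10, S100A11, S100A13, S100A14, S100A16 and S100P, picked by gene name from 60612 rows of a table of gene expression. The table holds 25 rows of the S100 family when pseudogenes are counted. Of the 10 genes, 9 lie in the S100 cluster on the long arm of chromosome 1 and S100P lies on chromosome 4. Their RNA was sequenced in SNU-368, a human liver cancer line that the labels place among HCC (hepatocellular carcinoma) lines. A short hairpin RNA against TFAM (shTFAM) was carried by 3 samples and a control hairpin (shCtrl) by 3, which is the whole series of 6 libraries. TFAM is the factor that packages mitochondrial DNA and is needed for its transcription. The labels give neither the hairpin sequence nor whether the cells were a clone or a pool, and no drug or time is named for either group.

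S100 proteins are small proteins that carry a pair of EF hands, helix-loop-helix calcium binding sites. Most form dimers that open on calcium binding and then dock onto target proteins such as annexins and myosin, and several are also secreted and act on receptors at the cell surface. In liver and other carcinomas several members, among them S100A4, S100A11 and S100P, have been studied in connection with migration and metastasis.

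Libraries held 46263488 to 61058282 counts in shTFAM and 43286024 to 50910536 in shCtrl. A floor of 3 counts was 0.0491 to 0.0693 counts per 1000000 counts (CPM), a limit that covers counting error only. TFAM stood at 63.7, 65.0 and 56.7 CPM in the shTFAM libraries and 82.2, 76.2 and 89.6 CPM in the shCtrl libraries. TFAM fell by 0.42 on the log2 scale (SE 0.107, adjusted p 0.0377 in edgeR), and leaving out any 1 of the 6 libraries ended this call (adjusted p 0.0676 to 0.0948 in edgeR). The library shCtrl 3 stood apart from shCtrl 1 and 2 on the second principal component, which held 16.6% of the variance. Of 14 hepatocyte markers, 8 had no count in any library (ALB, APOA1, APOA2, APOB, TTR, FGA, FGB and AFP), and 2 passed the filter on low values. Of these, KRT8 rose in shTFAM cells, as 5 of the S100 genes did (0.61 on the log2 scale, adjusted p 0.0160 in edgeR), a call lost without shCtrl 1 or shCtrl 2 (up to 0.0624), and KRT18 did not pass (-0.069, adjusted p 0.724 in edgeR). Any part of this in the S100 values was not tested. No label says that the libraries come from separate cultures, and the p-values may therefore rest on technical spread alone.

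All 10 S100 genes had positive log2 fold changes, from 0.38 for S100A13 to 1.70 for S100A3, with a median of 0.61 against -0.015 over all 14708 rows tested. At an adjusted p under 0.05 in edgeR, 5 of the 10 rose in shTFAM cells, S100A3, S100A10, S100A16, S100P and S100A11, where 11.3% of all rows tested were called higher. None of the 10 fell, where 6.59% of all rows were called lower. The count of lower members was also 0 at an unadjusted p under 0.05, in DESeq2 and in limma. Among all rows, 1661 were called higher and 969 lower, a split that scaling to library totals turned to 1353 and 1266 and scaling to the counts outside mitochondrial DNA to 1198 and 1771. The last of these moved the median of all rows to -0.15, and the 10 members remained positive in all 16 alternative settings in which they were fitted. RNA from bulk cells cannot tell apart a change in the number of expressing cells and a change of RNA per cell.

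**Figure D1:**
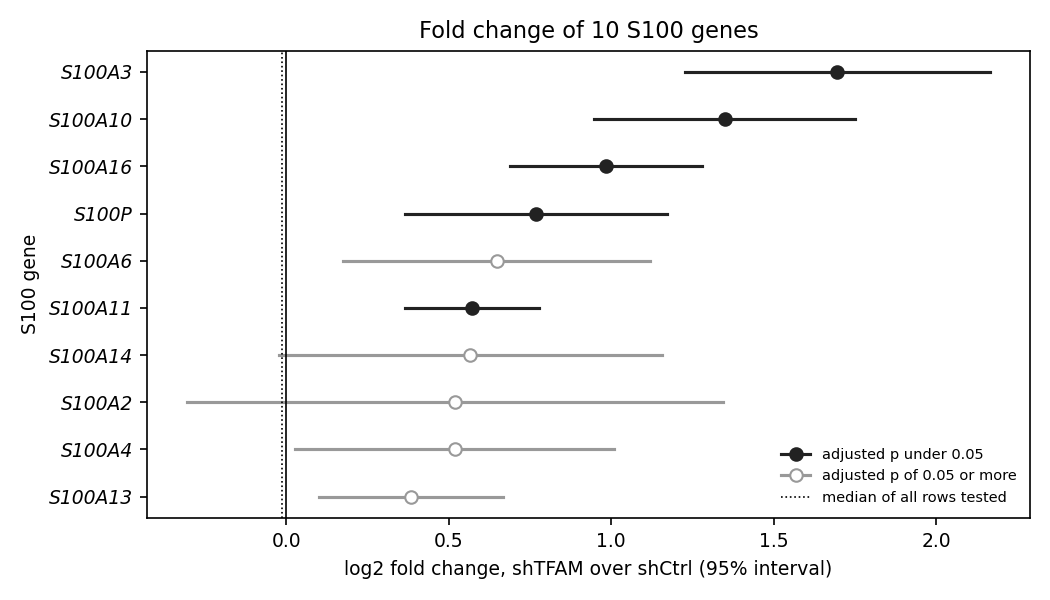
Log2 fold change, shTFAM over shCtrl, of each of 10 S100 genes (rows) with its 95% interval from edgeR. Filled points passed an adjusted p of 0.05 and open points did not, and the dotted line is the median of all rows tested (-0.015). The 5 filled genes lie between 0.57 and 1.70, and the intervals of S100A2 and S100A14 cross 0.

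In CPM, every shTFAM library was above every shCtrl library for 9 of the 10 genes, all but S100A2, where this held for 22.1% of all rows tested. For S100A4 this rested on the library scaling of the CPM and not on gene length, which is the same in every library. Its FPKM (counts scaled to gene length and depth) overlapped, at 302, 317 and 298 in shTFAM and 171, 198 and 310 in shCtrl. The highest shTFAM value was that of shTFAM 3 for 8 of the 10 genes. Rows of short transcripts as a whole were also slightly higher in shTFAM 3 than in the other shTFAM libraries, by a median of 0.082 log2 units for rows under 1000 bases and 0.049 for rows of 1000 to 2000 bases. The 10 members, of 556 to 2622 bases, were higher there by a median of 0.29. Between the groups, the median log2 fold change was -0.21 for rows under 1000 bases and -0.11 for rows of 1000 to 2000 bases. The part of transcript length in the members' values was not tested. Without shTFAM 3, 4 of the members were called, S100P being lost (edgeR adjusted p 0.0723).

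**Figure D2:**
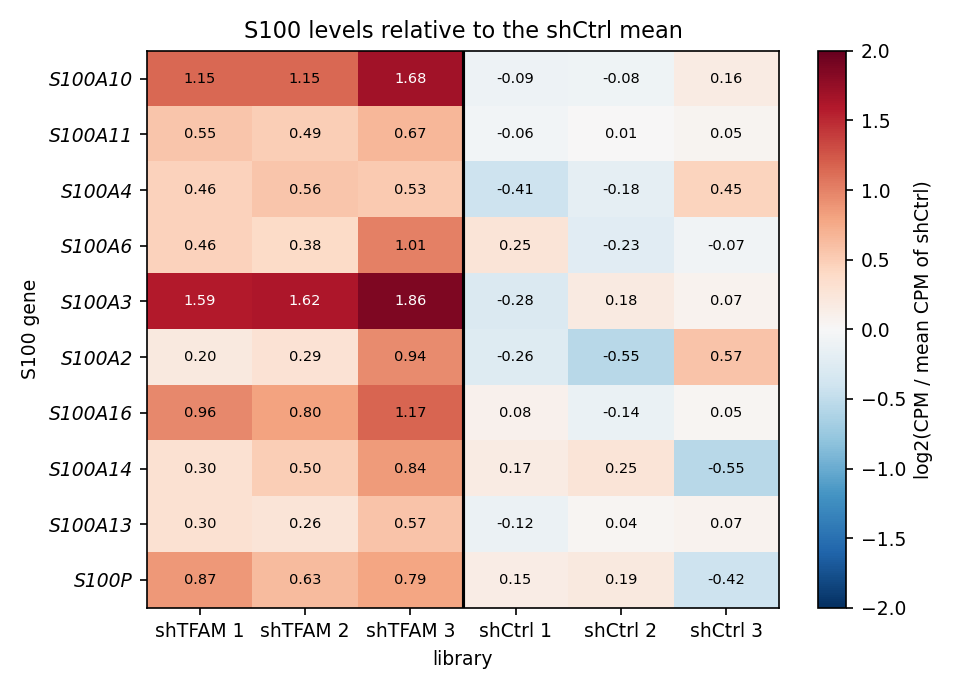
Log2 of each library's CPM over the mean CPM of the 3 shCtrl libraries, for 10 S100 genes (rows, the chromosome 1 genes first and S100P last) in 3 shTFAM and 3 shCtrl libraries (columns). S100A3 and S100A10 lie between 1.14 and 1.86 in the shTFAM libraries, and shCtrl 3 is high for S100A4 (0.45) and S100A2 (0.57) and low for S100A14 (-0.55) and S100P (-0.42).

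The annotated start regions of 4 of these genes are shown. Among those not shown are S100A13, with the smallest fold change, and S100A2, with the lowest level per length. S100A3 and S100A10 had the largest fold changes, and S100P had the highest level per length and lies outside the cluster. The row of S100A4 overlaps that of S100A3, and S100A4 did not pass the test. Each window holds 250 bases before and 50 after the start, from RefSeq on GRCh38.p14 (the hg38 build), written 5′ to 3′ on the gene's strand. Capitals mark matches, on either strand, to the hypoxia response element cores ACGTG and, as a variant, GCGTG, to the AP-1 motif TGANTCA, to the TEAD motif GGAATG and to the TATA box TATAAA. On the other strand ACGTG reads CACGT, and TGANTCA reads as itself.
S100A3, chr1:153549209-153549508, minus strand: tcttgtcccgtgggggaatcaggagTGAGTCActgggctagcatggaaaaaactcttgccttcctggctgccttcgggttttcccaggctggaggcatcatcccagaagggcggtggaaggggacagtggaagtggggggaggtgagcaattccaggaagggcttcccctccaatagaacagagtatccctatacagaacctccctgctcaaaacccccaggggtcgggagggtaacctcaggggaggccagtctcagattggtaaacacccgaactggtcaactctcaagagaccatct
S100A10, chr1:151993810-151994109, minus strand: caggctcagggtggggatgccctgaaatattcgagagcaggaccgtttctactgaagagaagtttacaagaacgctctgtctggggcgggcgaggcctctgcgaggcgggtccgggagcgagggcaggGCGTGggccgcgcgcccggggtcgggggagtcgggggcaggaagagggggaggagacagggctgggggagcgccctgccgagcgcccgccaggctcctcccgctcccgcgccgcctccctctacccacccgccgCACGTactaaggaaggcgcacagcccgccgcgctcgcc
S100P, chr4:6693628-6693927, plus strand: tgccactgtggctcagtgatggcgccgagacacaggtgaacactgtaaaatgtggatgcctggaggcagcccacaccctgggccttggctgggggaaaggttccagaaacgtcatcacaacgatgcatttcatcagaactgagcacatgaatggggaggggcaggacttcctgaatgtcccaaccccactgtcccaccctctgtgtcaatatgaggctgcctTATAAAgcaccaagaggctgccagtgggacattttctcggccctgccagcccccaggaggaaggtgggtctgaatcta
S100A4, chr1:153545757-153546056, minus strand: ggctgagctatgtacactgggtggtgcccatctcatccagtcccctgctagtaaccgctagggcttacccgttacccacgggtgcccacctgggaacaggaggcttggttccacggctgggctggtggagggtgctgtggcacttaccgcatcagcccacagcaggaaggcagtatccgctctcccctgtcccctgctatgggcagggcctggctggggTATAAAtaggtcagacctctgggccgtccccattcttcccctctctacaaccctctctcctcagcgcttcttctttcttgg
The S100P and S100A4 windows each hold TATAAA, at base -28 and base -31 from the start. The S100A3 window holds TGANTCA at base -225, and the S100A10 window holds GCGTG at base -122 and ACGTG at base 13. RefSeq gave 14 windows for the 10 genes. ACGTG was in 2 of the 14 windows and in 21.4% of 35116 windows of all genes, GCGTG in 7 and in 36.5%, TGANTCA in 2 and in 7.71%, GGAATG in 2 and in 14% and TATAAA in 3 and in 11.5%. A match to these letters is a description of the sequence and not a measured site.

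Of the annexin-binding members, S100A10 changed most. S100A10 (p11; ENSG00000197747, chromosome 1, 151982915 to 151993859, minus strand, hg38) forms a tetramer with annexin A2 at the plasma membrane, binds plasminogen, and has lost the ability to bind calcium. It stood at 245, 244 and 355 CPM in the shTFAM libraries and 103, 104 and 124 CPM in the shCtrl libraries. All 3 shTFAM libraries lay far above the highest shCtrl library, with shTFAM 3 the highest. On the log2 scale the difference was 1.35 (SE 0.171; adjusted p 0.00432, edgeR), 2.55-fold higher with a 95% interval of 1.93 to 3.37.

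S100A11 (ENSG00000163191, chromosome 1, 152032506 to 152047907, minus strand), which binds annexin A1, lies 38646 bases from S100A10. It stood at 288, 277 and 312 CPM in shTFAM and 189, 198 and 203 CPM in shCtrl. The spread within groups was the smallest among the members, with coefficients of variation of 6.16% in shTFAM and 3.77% in shCtrl; only that of S100A4 in shTFAM (3.34%) was smaller. It rose by 0.57 on the log2 scale (SE 0.0878, edgeR adjusted p 0.00807), 1.49-fold. In FPKM, S100A10 was at 54.7, 56.5 and 72.9% of S100A11 in shTFAM and at 35.1, 33.8 and 39.0% in shCtrl (exact permutation p 0.1, two-sided, the lowest that 3 against 3 allows, adjusted p 0.15 over the 3 ratios compared).

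S100A3 (ENSG00000188015, chromosome 1, 153547329 to 153549258, minus strand) is a cysteine-rich member known from hair cuticle cells. It had the largest fold change and the second lowest mean FPKM of the 10 genes. It stood at 8.67, 8.88 and 10.5 CPM in shTFAM and 2.37, 3.26 and 3.02 CPM in shCtrl, from 398 to 606 and from 105 to 167 counts. The groups were far apart relative to their spread. On the log2 scale the difference was 1.70 (SE 0.199; adjusted p 0.00365, edgeR), 3.24-fold higher with a 95% interval of 2.34 to 4.48.

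S100A4 (ENSG00000196154, chromosome 1, 153543613 to 153550136, minus strand) is the metastasis-associated member that binds the heavy chain of non-muscle myosin IIA. By these coordinates it spans S100A3 on the same strand. The RefSeq start shown above (window 153545757 to 153546056) lies inside this span, with S100A3 wholly upstream of it. The exons of the genes share 0 bases in GENCODE 29. S100A4 stood at 341, 364 and 357 CPM in shTFAM and 187, 219 and 337 CPM in shCtrl. The shTFAM libraries were close together, while shCtrl 3 lay near them and far from shCtrl 1 and 2. On the log2 scale the difference was 0.52 (SE 0.209; adjusted p 0.129, edgeR; 95% interval 0.025 to 1.01). Without shCtrl 3 it was 0.80 (edgeR adjusted p 0.0104). Leaving out shTFAM 3 as well gave 0.80 too (edgeR adjusted p 0.0168). Counts of S100A3 were 2.54, 2.44 and 2.94% of those of S100A4 in shTFAM and 1.27, 1.49 and 0.897% in shCtrl (exact permutation p 0.1, two-sided, the lowest that 3 against 3 allows, adjusted p 0.15). With the counts of S100A3 and S100A4 summed into 1 row, a setting chosen after seeing the coordinates, the log2 fold change was 0.54 (edgeR adjusted p 0.115).

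S100A6 (calcyclin; ENSG00000197956, chromosome 1, 153534599 to 153536215, minus strand), which binds the calcyclin-binding protein, stood at 263, 250 and 386 CPM in shTFAM and 228, 164 and 182 CPM in shCtrl. The shTFAM 2 and shCtrl 1 libraries lay close together and shTFAM 3 well above. On the log2 scale the difference was 0.65 (SE 0.200; adjusted p 0.0650, edgeR) and passed in DESeq2 (DESeq2 adjusted p 0.0159). A row on the opposite strand, BX470102, overlaps 517 bases of S100A6 and rose at a low level, with 2.99 ± 0.769 CPM in shTFAM and 1.27 ± 0.0849 CPM in shCtrl (SD, n = 3 each; edgeR adjusted p 0.0259). It passed again when shTFAM 3 was left out and for no other library (edgeR adjusted p up to 0.0868). The libraries keep the strand, but the strand setting of the counting was not found in the labels or headers, so reads of the pair may be shared.

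S100A2 (ENSG00000196754, chromosome 1, 153561108 to 153567890, minus strand), a mainly nuclear member that binds p53, had the lowest mean FPKM of the 10 in both groups. It stood at 4.89, 5.22 and 8.19 CPM in shTFAM and 3.56, 2.91 and 6.31 CPM in shCtrl. The libraries shTFAM 3 and shCtrl 3 were the high ones of their groups and the groups overlapped. The log2 fold change of 0.52 did not pass (SE 0.350, edgeR adjusted p 0.333, 95% interval -0.30 to 1.34).

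At the end of the cluster, S100A16, S100A14 and S100A13 lie side by side on the minus strand, with 1117 and 1859 bases between them. S100A16 (ENSG00000188643, 153606886 to 153613137), a widely expressed member, stood at 107.5, 96.6 and 124.5 CPM in shTFAM and 58.7, 50.3 and 57.2 CPM in shCtrl. The groups were well apart, and it rose 1.98-fold (log2 fold change 0.98, SE 0.126, edgeR adjusted p 0.00449). S100A14 (ENSG00000189334, 153614255 to 153616927), a member of epithelial cells, stood at 15.4, 17.6 and 22.4 CPM in shTFAM and 14.1, 14.9 and 8.52 CPM in shCtrl. Its shTFAM 1 library was close to shCtrl 2, shCtrl 3 was low, and the log2 fold change of 0.57 did not pass (SE 0.250, edgeR adjusted p 0.157, 95% interval -0.024 to 1.16).

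S100A13 (ENSG00000189171, 153618787 to 153631360), which takes part in the release of FGF1 and interleukin 1 alpha from cells without a signal peptide, stood at 51.6, 50.0 and 62.0 CPM in shTFAM and 38.5, 43.1 and 43.9 CPM in shCtrl. Its log2 fold change of 0.38 was the smallest of the 10 and did not pass in edgeR (SE 0.1202, edgeR adjusted p 0.0671), but passed in DESeq2 (DESeq2 adjusted p 0.0447). Its span overlaps S100A1 on the opposite strand, with 235 exonic bases in common in GENCODE 29. S100A1 was at 84 to 133 counts in shTFAM and 88 to 138 in shCtrl, and adding its counts to S100A13, a setting chosen after seeing the coordinates, gave a log2 fold change of 0.36 (edgeR adjusted p 0.0719). Of the 3 neighbours, S100A16 alone passed the test, and the differences between their fold changes were not tested.

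S100P (ENSG00000163993, chromosome 4, 6693878 to 6697170, plus strand), first known from placenta and a binding partner of ezrin and of the receptor AGER, was the most abundant member per length in both groups. It stood at 349.5, 296.5 and 331.5 CPM in shTFAM and 213, 218 and 143 CPM in shCtrl. The shTFAM libraries were all above the shCtrl libraries, with shCtrl 3 lowest. It rose 1.70-fold (log2 fold change 0.77, SE 0.171, edgeR adjusted p 0.0253, 95% interval 1.29 to 2.25 as a fold). The call ended without shCtrl 1 (edgeR adjusted p 0.0532), shTFAM 1 (0.0702), shTFAM 2 (0.0519) or shTFAM 3 (0.0723), and held without shCtrl 2 or shCtrl 3.

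Per length, the 10 genes spanned more than 2 orders of magnitude. In shTFAM, S100P averaged 566 ± 52.4 FPKM, S100A11 368 ± 14.6, S100A4 306 ± 9.91, S100A6 251 ± 55.5 and S100A10 226 ± 43.9 (SD, n = 3 each). In shCtrl the same genes averaged 351 ± 75.2, 262 ± 10.02, 226 ± 73.5, 171 ± 30.6 and 94.4 ± 10.3 FPKM (SD, n = 3 each). Below them came S100A16 at 52.5 ± 5.55 and 28.2 ± 2.53 FPKM, S100A13 at 20.1 ± 1.83 and 16.3 ± 1.09, S100A14 at 11.7 ± 1.94 and 8.42 ± 2.30, S100A3 at 9.05 ± 0.691 and 2.95 ± 0.454, and S100A2 at 3.17 ± 0.850 and 2.36 ± 1.01 in shTFAM and in shCtrl (SD, n = 3 each). The order of the means was the same in both groups. Libraries of neighbouring genes overlapped for S100A4 and S100A6 and for S100A6 and S100A10 in shTFAM, and for the 4 most abundant genes and for S100A3 and S100A2 in shCtrl. The FPKM of the 10 genes summed to 1820, 1686 and 1934 in shTFAM and 1169, 1144 and 1175 in shCtrl. S100A10 made up 11.2 to 14.3% of that sum in shTFAM and 7.59 to 9.04% in shCtrl, and S100P 28.8 to 34.2% in shTFAM and 22.5 to 34.7% in shCtrl.

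**Figure D3:**
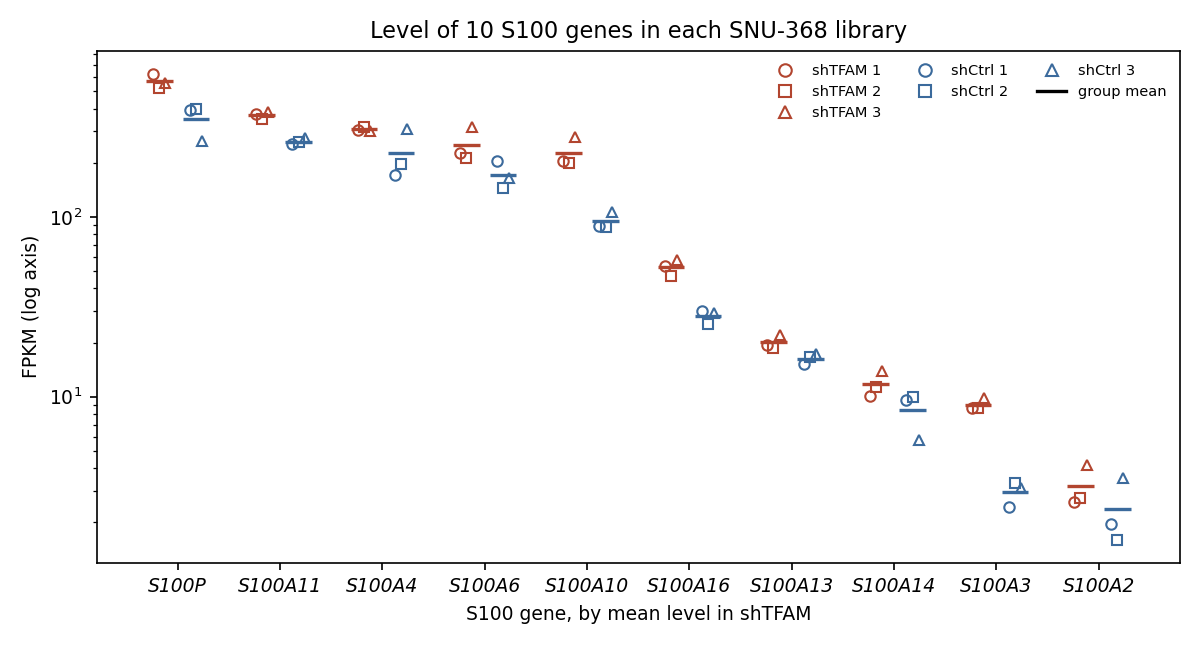
FPKM (log axis) of 10 S100 genes in each of 3 shTFAM libraries (left of each pair) and 3 shCtrl libraries (right), with the group mean as a bar and genes in order of their mean in shTFAM. S100P is highest (566 against 351 FPKM) and S100A2 lowest (3.17 against 2.36 FPKM).

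The other 15 rows of the family were low or empty. Of these, 8 had no count in any library, among them S100G, S100Z, S100A7A, the S100A7 pseudogene S100A7P1 and the S100A11 pseudogenes S100A11P1 and S100A11P2. S100A1, S100A5 and S100A9 passed the filter and did not pass the test (edgeR adjusted p 0.713, 0.507 and 0.510). S100A9, a subunit of calprotectin of myeloid cells, had 43, 31 and 146 counts in shTFAM and 31, 47 and 61 in shCtrl, and its partner S100A8 had 10, 10 and 34 counts in shTFAM and 17, 19 and 41 in shCtrl. Within each group, shTFAM 3 and shCtrl 3 held the most of both. All 7 fused-type S100 genes of the skin barrier listed, such as FLG and HRNR, had no count.

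The S100 cluster was compared with the rows around it. Between S100A10 and S100A1, from 151982915 to 153632039 on chromosome 1, 12 of 19 S100 rows were tested, 4 rose and none fell, with a median log2 fold change of 0.57, beside 11.3% higher and 6.59% lower over all rows tested. Lower rows also numbered 0 there at an unadjusted p under 0.05, in DESeq2 and in limma. Only 2 of the 73 other rows in this span were tested (BX470102 and AL162258). In the flanks of 1000000 bases on each side, 59 of 129 rows were tested, 3 rose and 5 fell, with a median of -0.12, beside the same 11.3% and 6.59%. The flanking rows with the smallest p were NPR1 (1.01, edgeR adjusted p 0.00379), PRUNE1 (0.79, edgeR adjusted p 0.0118), AL365436 (-1.71, edgeR adjusted p 0.0131) and THEM4 (-0.85, edgeR adjusted p 0.0188). NPR1, the receptor of atrial natriuretic peptide, and PRUNE1, a phosphodiesterase, passed without each single library. The calls of AL365436 and THEM4 ended without shCtrl 2 (edgeR adjusted p 0.0520 and 0.0555). The difference between cluster and flanks was not tested.

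**Figure D4:**
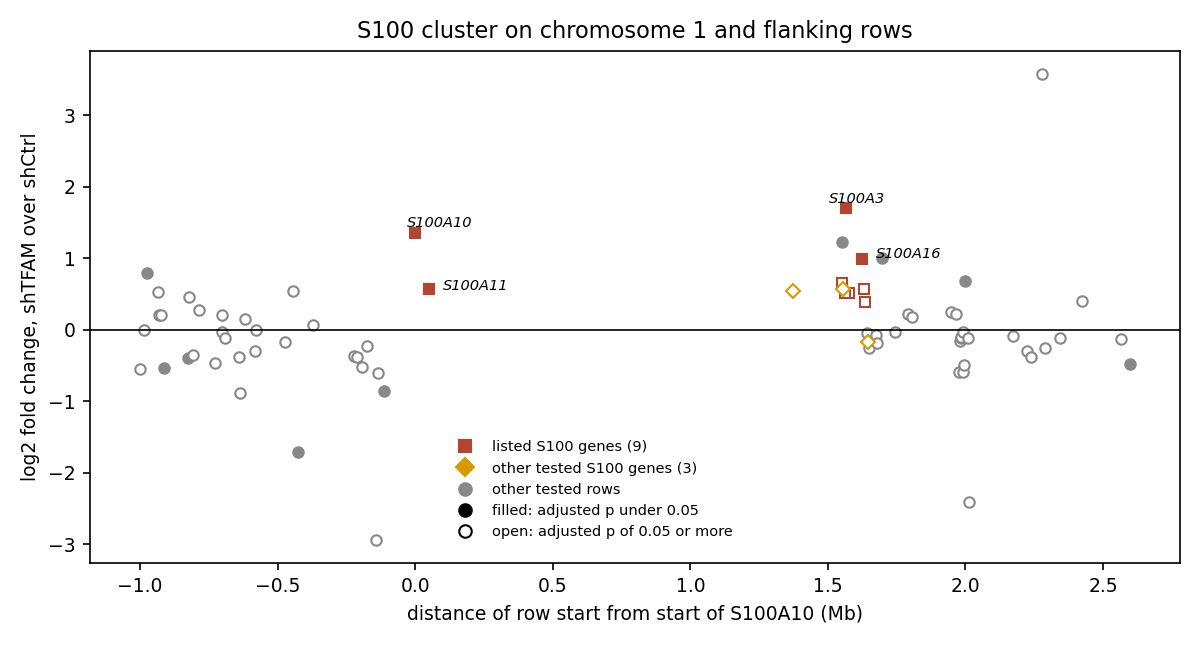
Log2 fold change, shTFAM over shCtrl, of tested rows within the S100 cluster and 1 Mb to either side, against the distance of the row's start from the start of S100A10. The 9 listed S100 genes of chromosome 1 (squares) lie between 0.38 and 1.70, and the 59 flanking rows (circles) have a median of -0.12.

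Genes whose proteins bind S100 proteins changed in both directions. Of 11 tested annexins and AHNAK, 4 rose (ANXA1, ANXA2, ANXA3 and ANXA8), ANXA6 fell and 6 did not pass, with a median log2 fold change of 0.30. Over all rows tested, 11.3% were called higher and 6.59% lower, with a median of -0.015. ANXA2, the partner of S100A10, rose to 1184 ± 116 CPM in shTFAM, against 533 ± 104 CPM in shCtrl (SD, n = 3 each; 1.15 on the log2 scale, SE 0.157, edgeR adjusted p 0.00548). In FPKM, S100A10 stood at 196, 186 and 235% of ANXA2 in shTFAM and at 184, 199 and 165% in shCtrl (two-sided exact permutation p 0.4, adjusted p 0.4). ANXA1, the partner of S100A11, rose by 0.69 on the log2 scale (edgeR adjusted p 0.0300), ANXA8 by 1.22 (edgeR adjusted p 0.0176) and ANXA6 fell by 0.44 (edgeR adjusted p 0.0287). ANXA8 has near-identical copies with which its reads may be shared. The ANXA2 call held without each single library. That of ANXA1 was lost when shCtrl 1, shCtrl 2, shTFAM 1 or shTFAM 3 was left out (adjusted p up to 0.0855, edgeR), that of ANXA8 without shCtrl 1 or shTFAM 2 (up to 0.0550), and that of ANXA6 without any 1 library (0.0521 to 0.0904).

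Of 19 tested genes of other S100 partners, most of them intracellular, 5 rose (IQGAP1, MYH9, PLAT, TAGLN2 and TPM1). The product of PLAT is secreted. Another 3 fell (CACYBP, FKBP4 and HSP90AA1) and 11 did not pass. The median log2 fold change was 0.14, beside 11.3% higher and 6.59% lower over all rows. MYH9, the myosin IIA heavy chain bound by S100A4, rose to 1053 ± 130 CPM in shTFAM, against 651 ± 7.05 CPM in shCtrl (SD, n = 3 each; 0.69, SE 0.111, edgeR adjusted p 0.00904). Tropomyosin TPM1 (0.84, edgeR adjusted p 0.0122) and the scaffold IQGAP1 (0.50, edgeR adjusted p 0.0171), a partner of S100P, also rose. FKBP4, a cochaperone of HSP90, fell to 226 ± 13.2 CPM in shTFAM, against 386 ± 29.9 CPM in shCtrl (SD, n = 3 each; -0.77, edgeR adjusted p 0.00432). CACYBP, the partner of S100A6, fell by 0.71 on the log2 scale (edgeR adjusted p 0.0361), and the S100P partner EZR did not pass (0.054, edgeR adjusted p 0.690). ANXA3, CACYBP, EZR, HSP90AA1, PLAT and TAGLN2, like TLR4, were named after their values were seen. The calls of MYH9, TPM1 and FKBP4 held without each single library, and that of IQGAP1 ended without shCtrl 1, shCtrl 2 or shTFAM 2 (edgeR adjusted p up to 0.0677). CACYBP and HSP90AA1 passed only when shTFAM 2 was the library left out (otherwise up to 0.0946 and 0.0716), TAGLN2 and ANXA3 only when it was shCtrl 3 (otherwise up to 0.0849 and 0.0901), and PLAT passed in none of these 6 fits (0.0513 to 0.106).

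Of 14 listed receptors of extracellular S100 proteins, 8 were tested, 3 rose, none fell and 5 did not pass, with a median log2 fold change of 0.30, beside 11.3% of all rows higher and 6.59% lower. The count of lower receptors was also 0 at an unadjusted p under 0.05, in DESeq2 and in limma. EGFR rose to 295 ± 31.2 CPM in shTFAM, against 146 ± 12.5 CPM in shCtrl (SD, n = 3 each; 1.02, SE 0.114, edgeR adjusted p 0.00339). CD68, a lysosomal glycoprotein best known from macrophages, rose by 1.43 (edgeR adjusted p 0.00892) and BSG, the S100A9 receptor also called CD147, by 0.41 (edgeR adjusted p 0.0313). BSG passed when shTFAM 3 was left out, but not when any other library was (edgeR adjusted p up to 0.0981). AGER, the receptor for advanced glycation end products through which several S100 proteins signal, stood at 7.40 ± 0.159 CPM in shTFAM and 8.08 ± 1.97 CPM in shCtrl (SD, n = 3 each; edgeR adjusted p 0.706). TLR4 was under the filter at means of 0.295 FPKM in shTFAM and 0.0744 FPKM in shCtrl. Over single left-out libraries, the annexin, partner and receptor lists together gave 5 to 10 higher and 1 to 3 lower genes, against 12 and 4 with all libraries. Higher genes numbered 5 without shCtrl 1, 6 without shCtrl 2, 7 without shTFAM 1 and 6 without shTFAM 2, and 1 gene was lower without each single library other than shTFAM 2.

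Of 18 tested genes of other EF-hand proteins (calmodulins, calpains, reticulocalbins and relatives), 5 rose, none fell and 13 did not pass, with a median log2 fold change of 0.19, where 11.3% of all rows were higher and 6.59% lower. At an unadjusted p under 0.05, 2 of them were lower (GCA and RCN2, named after their values were seen), and DESeq2 and limma called 0 lower. EFHD2 (swiprosin), an actin-binding member, rose to 391 ± 83.5 CPM in shTFAM, against 159 ± 18.2 CPM in shCtrl (SD, n = 3 each; 1.296 on the log2 scale, SE 0.169, edgeR adjusted p 0.00472). The large calpain subunit CAPN2 (0.60, edgeR adjusted p 0.0170), NUCB1 (0.54, edgeR adjusted p 0.0255) and CALU (0.86, edgeR adjusted p 0.0269) also rose. The EFHD2 call held without each single library. That of CAPN2 ended without shCtrl 1 or shCtrl 2 (edgeR adjusted p up to 0.0643), that of CALU without shCtrl 1, shTFAM 2 or shTFAM 3 (up to 0.0814) and that of NUCB1 held only when shCtrl 3 was the library left out (otherwise up to 0.0747).

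**Figure D5:**
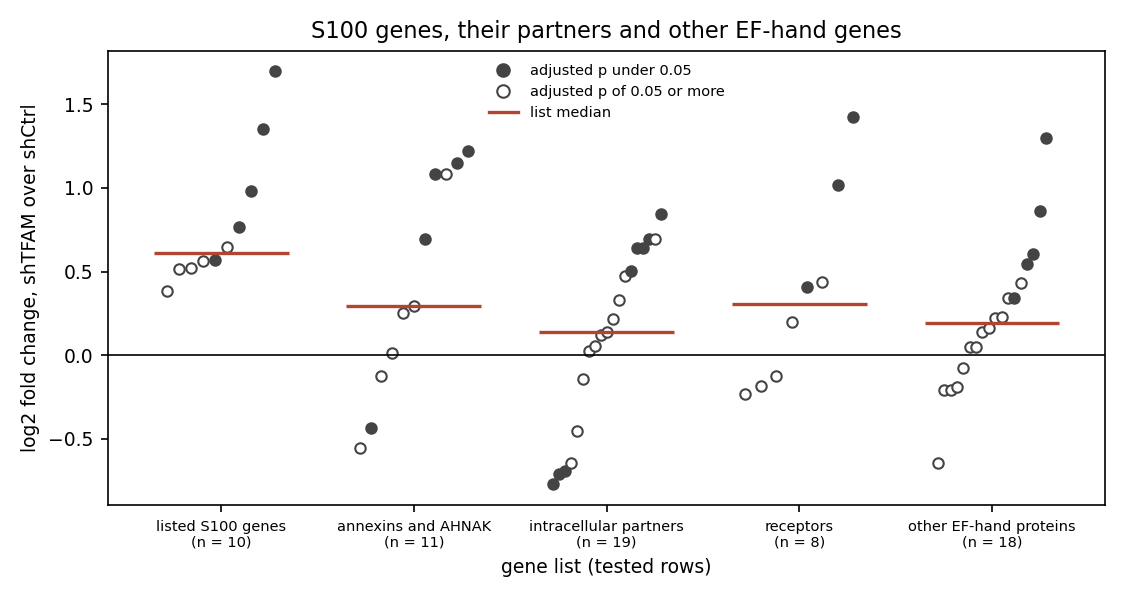
Log2 fold change, shTFAM over shCtrl, of the tested genes of 5 lists, sorted within each list, with list medians as bars. Filled points passed an adjusted p of 0.05. The medians are 0.61 for the S100 genes, 0.30 for annexins and AHNAK and 0.14 for intracellular partners (a list that includes the secreted PLAT). They are 0.30 for receptors and 0.19 for other EF-hand genes.

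Markers of immune, endothelial and fibroblast cells, which can also express S100 genes, were set beside these results. Of 15 listed, 6 were tested and 4 rose, beside 11.3% higher and 6.59% lower over all rows tested. The median log2 fold change of the list was 1.26, against -0.015 over all rows tested. Among those that rose were CSF1R (0.96, edgeR adjusted p 0.0233), DCN (2.95, edgeR adjusted p 0.00276) and PDGFRB (1.69, edgeR adjusted p 0.000721). Fibroblast markers differed among themselves, and COL1A1, COL3A1 and LUM were named after their values were seen. DCN averaged 1.48 ± 0.327 FPKM in shTFAM and 0.201 ± 0.0714 FPKM in shCtrl, PDGFRB 5.71 ± 0.587 and 1.87 ± 0.0579 FPKM, and LUM, which did not pass (edgeR adjusted p 0.0925), 1.48 ± 0.625 and 0.689 ± 0.295 FPKM in shTFAM and in shCtrl (SD, n = 3 each). COL3A1, under the filter, had 263, 257 and 172 counts in shTFAM and 18, 11 and 16 in shCtrl. COL1A1 was the most abundant marker of the list, at 29.5 ± 2.77 FPKM in shTFAM and 29.4 ± 7.19 FPKM in shCtrl (SD, n = 3 each; 0.091 on the log2 scale, edgeR adjusted p 0.779), while COL1A2 had no count in any library. PTPRC, CD3E and LYZ, markers of leukocytes, T cells and myeloid cells, also had no count. The 15 markers, COL1A1 making up most of the sum, came to 45.6 to 53.0 FPKM in shTFAM and 29.4 to 43.1 FPKM in shCtrl. Their part in the S100 values was not tested. The calls of DCN and PDGFRB held without each single library, and that of CSF1R was lost without shCtrl 1, shCtrl 2 or shCtrl 3 (edgeR adjusted p up to 0.0630).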

How the data were processed

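Libraries were stranded (dUTP) and made from poly(A) RNA, and reads were paired, per the labels' protocols. Tools listed in the submitters' processing notes are StringTie 1.3.4d, HISAT2 2.0.4, Bowtie 0.12.2 and cutadapt 1.9. Those notes list hg38 and mm8 as builds and give no roles; coordinates are human and are given as hg38. The authors deposited whole-number counts and FPKM per Ensembl gene for each library, per the file headers.

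The treatment label set the groups, and each column was assigned by its sample title; titles share no replicate numbers, so no pairing was used. Tests covered the rows whose mean over the 6 libraries reached 0.5 FPKM (14708 of 60612, 99.4 to 99.5% of counts), a filter all 10 members passed. The deposited counts were fitted with edgeR 4.0.16 (TMM, quasi-likelihood, two-sided, Benjamini-Hochberg over all tested rows; R 4.3.3); a call is an adjusted p under 0.05. SE is the log2 fold change over the root of F. Limma 3.58.1 on log2(FPKM + 1) or log2(FPKM + 0.1) and DESeq2 1.42.0 were alternatives. No replicate pair agreed within sampling noise (lowest chi-square per degree of freedom 42.2).

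Transcript lengths came from the ratio of counts to FPKM. Members and gene lists were chosen with earlier results of these data known. All members are named; other lists name up to 4 called genes with the smallest p, or 2 by level. Protein sequences were not used here. Single values of some listed genes are not reported here.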

Additional observations from a re-analysis of the deposited data

How the results depend on the processing

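The 10 S100 genes were refitted under 16 alternatives, 159 values in all because S100A2 could not be fitted among rows of at least 5 FPKM. All 159 kept the positive sign and 151 stayed on their side of the threshold. S100A3, S100A10, S100A11 and S100A16 passed in all 16, with adjusted p of at most 0.0209, 0.0227, 0.0406 and 0.0229. S100P passed in 12, and the 5 members without a call had 4 passes, 2 for S100A4, 1 for S100A6 and 1 for S100A13. The members called numbered 7 in DESeq2, 4 to 6 over single left-out libraries and 6 with shCtrl 3 and shTFAM 3 both left out. Over the whole table, leaving out single libraries gave 843 to 1332 higher and 305 to 733 lower rows, rows of at least 5 FPKM gave 1020 higher, and DESeq2 and scaling to counts outside mitochondrial DNA gave 1677 and 1771 lower, against 1661 higher and 969 lower. Of the 38 tested partners and receptors, single left-out libraries gave 5 to 10 higher and 1 to 3 lower, and leaving out shCtrl 3 and shTFAM 3 together gave 1 lower, against 12 and 4. The causes were not tested. No paired analysis was possible because the labels give the groups no shared replicate numbers. For S100A2 and S100A14, the spread between 3 libraries left intervals that include 0.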

Other observations

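AHNAK, a very large scaffold protein that joins S100A10 and annexin A2 at the membrane, was chosen after its values were seen. It stood at 1781, 1975 and 94.5 CPM in the shTFAM libraries and 38.8, 872 and 904 CPM in the shCtrl libraries. The libraries shTFAM 3 and shCtrl 1 were low, each far from the other libraries of its group, while S100A10 was highest in shTFAM 3. With a log2 fold change of 1.09 and an SE of 1.23 the gene did not pass (edgeR adjusted p 0.576).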
